A study of Mus musculus with 8 samples.

Results

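The 6 genes described here, Epgn, Areg, Hbegf, Ereg, Nrg1 and Tgfa, encode ligands of the epidermal growth factor (EGF) receptor family. They were taken by symbol from the authors' deposited table of KO against WT differences, which holds the probe sets whose adjusted p was below 0.05 and whose log2 fold change reached 0.5 in one or the other direction. They are 6 of the 3022 genes named there, and the identity of the probe set labelled Nrg1 is not secure, as described below. These genes were thus chosen on the KO against WT values themselves, so their differences are given as a description without a test. In that table Epgn came closest to the limit on adjusted p, at 0.0448, and Tgfa had the smallest log2 fold change, 0.73. The nearest probe set beyond the limit had an adjusted p of 0.050018 and carries no name here. The other family members, Egf, Btc, Nrg2, Nrg3 and Nrg4, were not in the table. Such a gene either missed the criteria or was not tested, and no level can be given for it.

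The study compared ear skin of 4 KO and 4 WT adult mice on Affymetrix Gene Mouse 2.0 ST arrays, 1 mouse per array. KO mice carried KRT14-CreERT2(tg/0) with both Cdsn alleles floxed (Cdsnfl/fl), and WT mice carried KRT14-CreERT2(tg/0) with unmodified Cdsn (Cdsnwt/wt). Both groups had the C57B/6J background, were 7 to 12 weeks old, and received 100 µg of 4-hydroxytamoxifen on each ear daily for up to 15 days, so the recombinase and the drug were common to them. The KRT14 promoter is active in basal keratinocytes, and ear skin also holds dermis, cartilage, muscle and immune cells, in which Cdsn was not targeted. Cdsn encodes corneodesmosin, an adhesive protein of the junctions in the outermost epidermis.

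EGF family ligands are made as membrane-anchored precursors, and membrane proteases of the ADAM family cut most of them free. The released ligand binds receptor tyrosine kinases of the ErbB family on the same or a neighbouring cell, and the receptors pair and signal through the RAS and ERK kinases, among other routes. In epidermis, keratinocytes make several of these ligands themselves, and the pathway is known for keratinocyte growth, migration and wound closure. Amphiregulin (Areg), epigen (Epgn) and transforming growth factor alpha (Tgfa) bind the EGF receptor. Heparin-binding EGF-like growth factor (Hbegf) and epiregulin (Ereg) also bind ErbB4, and neuregulin 1 (Nrg1) binds ErbB3 and ErbB4.

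All values are log2 intensities of 33793 probe sets. Cdsn read 10.31, 8.89, 9.82 and 9.49 in KO replicates 1 to 4, against 12.05, 11.76, 12.13 and 12.06 in WT replicates 1 to 4, so every KO array lay below every WT array. On the first principal component, which held 50.4% of the variance, KO arrays lay at 4.48 to 75.3, and WT replicates 2 to 4 at -50.5 to -43.5. WT replicate 1 lay at -2.60, next to KO replicates 3 and 4, and every ligand is given with and without it. With limma, 4428 probe sets, 13.1% of those tested, differed between KO and WT at adjusted p under 0.05. The share that met the authors' criteria and was higher in KO was 7.63%, and 15.9% of probe sets had all 4 KO values above all 4 WT values. By their selection the 6 ligands meet the authors' criteria, and 5 of the 6 had values that did not overlap between groups. Nothing is read from those counts, since the same contrast chose the genes. In whole skin, more cells of a type and more RNA per cell cannot be told apart.

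Epgn had the largest difference of the 6. It read 9.81, 10.38, 8.26 and 9.46 in KO replicates 1 to 4, against 9.25, 5.42, 5.07 and 5.72 in WT replicates 1 to 4. The groups overlapped through a single array: WT replicate 1 stood above KO replicate 3, while the other 3 WT arrays lay more than 2 log2 units below every KO array. KO mice averaged 9.48 ± 0.90 and WT mice 6.36 ± 1.94 (mean ± SD, n = 4 arrays per group), or a log2 difference of 3.11 (SE 0.86) and 8.66-fold. Without WT replicate 1 the difference was 4.08. The SD of Epgn in WT exceeded that of 99.9% of all probe sets.

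Areg, an autocrine growth factor of keratinocytes that lymphoid cells also make, read 8.57, 8.70, 7.02 and 8.0 in KO replicates 1 to 4, against 7.00, 4.97, 5.34 and 6.09 in WT replicates 1 to 4. The groups did not overlap, but KO replicate 3 and WT replicate 1 were only 0.02 apart. KO mice averaged 8.07 ± 0.77 and WT mice 5.85 ± 0.90 (mean ± SD, n = 4 arrays per group), or a log2 difference of 2.23 (SE 0.48) and 4.68-fold, and 2.61 without WT replicate 1. Hbegf, on chromosome 18, which macrophages make as well as keratinocytes, read 9.56, 10.37, 8.72 and 9.48 in KO replicates 1 to 4, against 8.44, 7.13, 7.12 and 7.49 in WT replicates 1 to 4. Again KO replicate 3 was the lowest KO array and WT replicate 1 the highest WT array, with 0.28 between them. KO mice averaged 9.53 ± 0.68 and WT mice 7.54 ± 0.62 (mean ± SD, n = 4 arrays per group), or a log2 difference of 1.99 (SE 0.38) and 3.97-fold, and 2.29 without WT replicate 1.

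Ereg differed less and varied less between mice. It read 9.44, 9.89, 9.82 and 9.04 in KO replicates 1 to 4, against 8.41, 8.16, 8.14 and 8.65 in WT replicates 1 to 4. Here the highest WT array was replicate 4 and the lowest KO array was also replicate 4, with 0.40 between them, so the pattern of Epgn, Areg and Hbegf was not repeated. KO mice averaged 9.55 ± 0.39 and WT mice 8.34 ± 0.24 (mean ± SD, n = 4 arrays per group), or a log2 difference of 1.21 (SE 0.20) and 2.31-fold, and 1.23 without WT replicate 1. A further probe set carried the Ereg symbol, and the 6 genes thus had 7 probe sets. It read 6.62, 6.85, 6.82 and 6.17 in KO replicates 1 to 4, against 6.00, 5.67, 5.44 and 5.71 in WT replicates 1 to 4, with a log2 difference of 0.91 (SE 0.18). Per the authors' deposited table it is of cross-hybridisation class 3, whose probes also match other transcripts, and lies on the - strand, while the main Ereg probe set, assigned to a RefSeq transcript, lies on the + strand. In RefSeq a non-coding gene on the - strand, Gm19610, overlaps Ereg. Which transcript this probe set reads was not analysed here. Its order of KO arrays, with replicates 2, 3, 1 and 4 from high to low, was that of the main Ereg probe set, but its highest WT array was replicate 1, where that of the main probe set was replicate 4.

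Tgfa, the classical autocrine EGF receptor ligand of keratinocytes, had the smallest difference. It read 8.01, 8.68, 8.28 and 8.08 in KO replicates 1 to 4, against 7.68, 7.12, 7.51 and 7.83 in WT replicates 1 to 4. The groups were separated by 0.18, between KO replicate 1 and WT replicate 4. KO mice averaged 8.26 ± 0.30 and WT mice 7.54 ± 0.31 (mean ± SD, n = 4 arrays per group), or a log2 difference of 0.73 (SE 0.19) and 1.65-fold, and 0.77 without WT replicate 1.

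The probe set labelled Nrg1 read 4.98, 4.80, 4.83 and 4.98 in KO replicates 1 to 4, against 3.69, 4.23, 3.97 and 4.2 in WT replicates 1 to 4. The groups did not overlap, the KO arrays lay within 0.18 of each other, and WT replicate 1 was the lowest of all arrays, the opposite of its place for Epgn, Areg and Hbegf. KO mice averaged 4.90 ± 0.09 and WT mice 4.02 ± 0.25 (mean ± SD, n = 4 arrays per group), or a log2 difference of 0.88 (SE 0.14) and 1.84-fold, and 0.77 without WT replicate 1. The identity of this probe set is less secure than that of the others. Its mean lay at percentile 32.0 of all probe set means. The authors' deposited table assigns it to an Ensembl transcript on the + strand, whereas mouse Nrg1 is known to be transcribed from the - strand. Across the table, 1363 of 1371 genes matched by RefSeq accession, 99.4%, had the strand that RefSeq gives them. Whether the probe set reads Nrg1 mRNA or another transcript of the locus was not analysed here, and no Nrg1 RNA level is drawn from it.

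**Figure D1:**
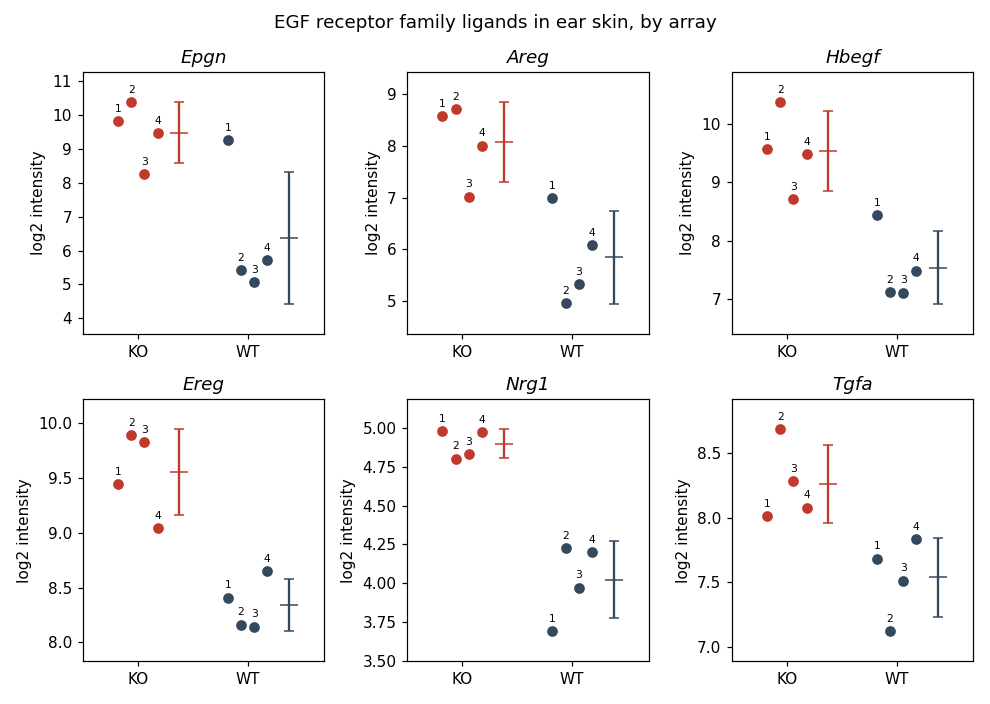
Log2 intensity of the 6 ligand genes in 4 KO arrays (red, left) and 4 WT arrays (dark, right), with replicate numbers above the points. The bar beside each group is the mean with its SD. WT replicate 1 lies among the KO arrays for Epgn and just below them for Areg, and the probe set labelled Nrg1 has it lowest.

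The ligands thus fell into groups by how single mice ranked. For Epgn, Areg and Hbegf the KO arrays ranked 2, 1, 4 and 3 from high to low, the same order in all 3 genes, and WT replicate 1 was the highest WT array, followed by replicate 4. For Ereg and Tgfa, KO replicate 2 was again highest and replicate 3 came next, and WT replicate 4 was the highest WT array. KO replicate 2 was thus the highest KO array for 5 of the 6 genes, all except the one labelled Nrg1. The position of WT replicate 1 can be put as the share of the way from the mean of the other WT arrays to the KO mean. That share was 94.3% for Epgn, 58.7% for Areg and 52.0% for Hbegf, against 25.1% for Tgfa and 7.28% for Ereg. It was -57.9% for the probe set labelled Nrg1, where WT replicate 1 lay on the far side. On the first principal component of all probe sets, KO replicates 1 and 2 (75.3 and 57.8) also lay above 4 and 3 (6.84 and 4.48), and WT replicate 1 was the highest WT array. Much of the order of Epgn, Areg and Hbegf is thus not particular to these ligands.

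Distances between centred profiles matched this grouping in part. Each gene's values were centred on its mean over the 8 arrays, and the root mean square difference between genes was taken in log2 units. Areg and Hbegf differed by 0.32, and Ereg and Tgfa by 0.31. The probe set labelled Nrg1, whose arrays ranked differently, lay near Tgfa (0.38) and Ereg (0.40). Epgn stood apart, from 0.88 to Areg up to 1.81 to the probe set labelled Nrg1. Hbegf was nearer to Ereg (0.69), Tgfa (0.79) and that probe set (0.87) than to Epgn (1.01). Areg was about as far from Ereg (0.88) as from Epgn. These distances hold the KO against WT difference as well as the spread between mice, and genes with small differences have small distances to one another.

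**Figure D2:**
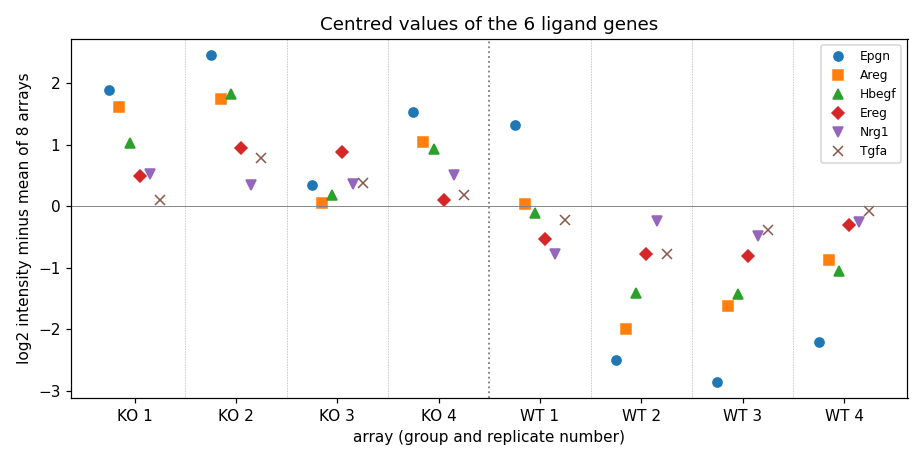
Log2 intensity of each ligand gene minus its mean over the 8 arrays, for KO replicates 1 to 4 and WT replicates 1 to 4. In WT replicate 1, Epgn lies well above 0 and Areg and Hbegf near 0. Ereg, Tgfa and the probe set labelled Nrg1 lie below 0 there, as in the other WT arrays.

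Among the 3016 other named genes, the 2 with the closest centred profile were found for each ligand over the same 8 arrays. For Epgn they were Stfa1, a cysteine protease inhibitor gene of cross-hybridisation class 3, at a distance of 0.37, and the small proline-rich gene Sprr2h at 0.47. Stfa1 read 11.18 to 12.31 in KO and 7.08 to 7.45 in WT replicates 2 to 4, with 11.16 in WT replicate 1, so it shared the raised value of that array. For Areg they were Saa1, which encodes an acute phase protein, at 0.32 and the AP-1 subunit gene Fosl1 at 0.40. Fosl1 was also the nearest to Hbegf, at 0.31, followed by Stat4, a transcription factor gene of cytokine signalling, at 0.34. Fosl1 read 7.57 to 9.13 in KO and 5.55 to 6.68 in WT replicates 2 to 4, with 7.27 in WT replicate 1. The nearest to Tgfa were the small GTPase genes Rhod at 0.10 and Rasd2 at 0.11. Those of Ereg were the predicted gene Gm25454 at 0.13 and the olfactory receptor gene Olfr1047 at 0.15. Both were dim and far below Ereg, at 4.12 to 4.70 and 3.26 to 3.88 in KO. Those of the probe set labelled Nrg1 were Gm11455 at 0.07 and 4921513I03Rik at 0.09, the latter dim at 3.89 to 4.28 in KO. All genes searched had met the same KO against WT criteria, so closeness to a ligand is partly a result of that choice.

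The ligands were chosen on this same contrast, so the sign of their differences with 1 array left out is no independent support. The sizes are given as a description. With each array left out in turn, the log2 difference ranged from 2.68 to 4.08 for Epgn, from 1.93 to 2.61 for Areg and from 1.71 to 2.29 for Hbegf. It ranged from 1.09 to 1.38 for Ereg, from 0.77 to 0.95 for the probe set labelled Nrg1 and from 0.59 to 0.82 for Tgfa. The highest value came without WT replicate 1 for Epgn, Areg and Hbegf, and without other arrays for Ereg, Tgfa and the probe set labelled Nrg1. Normalizing the arrays to common quantiles moved the median log2 difference of all probe sets to -0.021, from 0.094 in the deposited values. The ligands then differed by 2.97 for Epgn, 2.11 for Areg, 1.85 for Hbegf, 1.06 for Ereg and 0.61 for Tgfa. The probe set labelled Nrg1 then differed by 0.76. All lay above that median, for genes chosen on this contrast. With that normalization Epgn and Tgfa missed the limit of 0.05 (limma adjusted p = 0.0614 and 0.0755).

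**Figure D3:**
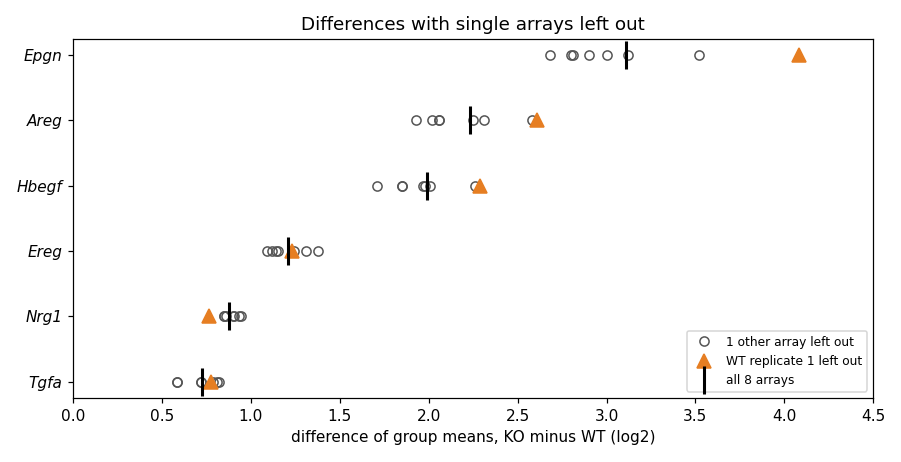
Difference of group means, KO minus WT, in log2 units for each ligand gene with all 8 arrays (bar), without WT replicate 1 (triangle) and without each of the other arrays (circles). All values lie above 0, for genes chosen on this contrast. WT replicate 1 has the largest influence on Epgn, at 4.08 in place of 3.11.

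Epgn, Ereg and Areg lie side by side on chromosome 5. In RefSeq they are consecutive protein-coding genes, after Mthfd2l and before Btc, which encodes the ligand betacellulin. Tgfa is on chromosome 6 and the Nrg1 probe set on chromosome 8, and 0 of the 6 lie on chromosome 17, where Cdsn is. A list of 17 genes around the chromosome 5 ligands, among them Btc and the chemokine genes Cxcl1, Cxcl2, Cxcl3 and Cxcl5, had 0 members higher in the table and 1 lower, where 6.30% of all RefSeq protein-coding genes were in the table as higher. A count of 0 among 17 is near that share, and nothing is read from it. The lower gene was Alb, which encodes serum albumin. It read 4.76, 4.96, 4.73 and 5.34 in KO replicates 1 to 4, against 6.19, 6.33, 5.76 and 5.75 in WT replicates 1 to 4 (log2 difference -1.06, SE 0.18, limma adjusted p = 0.00901). The groups did not overlap. A neighbour absent from the table may not have been tested.

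RefSeq promoter sequence (GRCm38.p6) was at hand for 3 of the 6 genes, from 250 bases before the annotated start to 50 bases after it, and these 3 windows are shown. They set Epgn and Areg, which lie in one cluster, beside Tgfa on another chromosome, which had the smallest difference. Capitals mark TATA boxes (TATAAA) in Epgn and Areg, the cAMP response element (TGACGTCA) in Areg, and GC boxes (GGGCGG or its reverse complement) in Tgfa. The windows are chr5:91027267-91027566 for Epgn, chr5:91139349-91139648 for Areg and chr6:86194972-86195271 for Tgfa, all on the + strand.
Epgn: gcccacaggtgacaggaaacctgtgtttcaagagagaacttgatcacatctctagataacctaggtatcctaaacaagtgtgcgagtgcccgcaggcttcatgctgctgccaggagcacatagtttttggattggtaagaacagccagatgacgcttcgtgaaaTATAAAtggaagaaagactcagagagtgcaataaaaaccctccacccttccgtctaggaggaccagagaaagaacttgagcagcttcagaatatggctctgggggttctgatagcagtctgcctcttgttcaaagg
Areg: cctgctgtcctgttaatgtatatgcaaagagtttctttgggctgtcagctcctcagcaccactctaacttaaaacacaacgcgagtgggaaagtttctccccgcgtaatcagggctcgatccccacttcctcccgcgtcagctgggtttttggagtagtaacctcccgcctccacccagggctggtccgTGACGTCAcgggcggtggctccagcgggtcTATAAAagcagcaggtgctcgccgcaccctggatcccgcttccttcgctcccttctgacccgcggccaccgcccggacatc
Tgfa: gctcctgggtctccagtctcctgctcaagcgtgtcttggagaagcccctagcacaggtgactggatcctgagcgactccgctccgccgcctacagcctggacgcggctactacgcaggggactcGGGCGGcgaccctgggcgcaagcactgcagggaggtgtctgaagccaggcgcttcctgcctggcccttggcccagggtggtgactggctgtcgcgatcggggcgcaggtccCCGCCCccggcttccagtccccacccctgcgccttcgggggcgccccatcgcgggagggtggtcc

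Matches were sought on both strands, and 32851 RefSeq promoter windows of the same length served as the background. A TATA box began 31 bases before the start of Areg and 86 bases before that of Epgn, and Tgfa had none. Such a match occurred in 13.6% of all windows. The cAMP response element, bound by CREB and ATF factors, began 61 bases before the start of Areg and was absent from the Epgn and Tgfa windows. It occurred in 1.79% of all windows. A GC box, which SP1 binds, was matched 2 times in Areg and 2 times in Tgfa, and 0 times in Epgn, with a match in 35.7% of all windows. The AP-1 motif (TGANTCA) and the STAT motif (TTCNNNGAA) had 0 matches in the 3 windows, against 7.81% and 8.30% of all windows. The windows held 47.3% G and C in Epgn, 59.3% in Areg and 70.7% in Tgfa, where the median of all windows was 52.7%. A match is a description of the letters in the window and says nothing on which factor acted.

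The other steps of the pathway were followed in lists of receptors, release factors, signal relays, feedback inhibitors and responsive genes. These lists were chosen with earlier results of these data known, and their genes were not used to select the ligands. Of 111 such genes, 18 were higher in KO and 0 lower, or 16.2%, against the 6.30% of all RefSeq protein-coding genes. That share is over all 21900 such genes, also those without a probe set or without signal in skin. The sets are thus unlike, and enrichment of the lists was not tested. With 31 growth factor and cytokine genes of other families and the 5 ligands outside the table counted too, 22 of 147 were higher and 0 lower, or 15%. The median log2 difference of the 22 was 0.89, against 0.71 over all genes of the table that were higher. Both sets hold only genes that met the criteria. The median over all probe sets, 0.094, has no such filter and cannot be set against them. The count of 22 fell to 11 when KO replicate 1 was left out, to 8 when KO replicate 2 was, to 8 when WT replicate 2 was, and to 5 when WT replicate 3 was. After quantile normalization it was 15, with Adam10, Egr1, Eps8, Ier3, Itga3, Lif and Stat3 no longer called. Without WT replicate 1 it was 18, with Csf2, Egr1, Itga5 and Mmp1b no longer called.

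None of the 4 ErbB receptor genes, Egfr, Erbb2, Erbb3 and Erbb4, was in the table. Of 13 genes for the release of ligands, 2 were higher, or 15.4%, against 6.30% of all RefSeq protein-coding genes. The metalloprotease gene Adam8, which myeloid cells also express, read 10.03, 9.86, 7.98 and 8.16 in KO replicates 1 to 4, against 7.87, 6.51, 5.94 and 7.02 in WT replicates 1 to 4 (log2 difference 2.17, SE 0.56, limma adjusted p = 0.0349). Adam10, the main sheddase of the ligands Egf and Btc, read 10.51, 10.47, 10.23 and 10.03 in KO replicates 1 to 4, against 9.91, 9.56, 9.63 and 9.52 in WT replicates 1 to 4 (log2 difference 0.66, SE 0.14, limma adjusted p = 0.0195). Neither gene's groups overlapped, though KO replicate 3 and WT replicate 1 were close for Adam8. Adam17, the main sheddase of Areg, Epgn, Ereg, Hbegf and Tgfa, and its cofactor genes Rhbdf1 and Rhbdf2 were not in the table. The calls of Adam8 and Adam10 were lost in 5 and 3 of the 8 leave-one-out fits, and that of Adam10 after quantile normalization (limma adjusted p = 0.0562).

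Of 25 relay genes, 3 rose, or 12.0%, against 6.30% of all RefSeq protein-coding genes. Map2k2, which encodes the ERK kinase MEK2, averaged 9.84 ± 0.18 in KO mice and 9.05 ± 0.18 in WT mice (mean ± SD, n = 4 arrays per group; log2 difference 0.79, SE 0.13, limma adjusted p = 0.00776). Stat3, a transcription factor activated by cytokine and growth factor receptors, rose by 0.57 log2 units (SE 0.11, limma adjusted p = 0.0135), with 11.46 ± 0.08 in KO mice and 10.89 ± 0.16 in WT mice (mean ± SD, n = 4 arrays per group). Eps8, an EGF receptor kinase substrate gene, rose by 0.79 (SE 0.21, limma adjusted p = 0.0383). Map2k2 and Stat3 kept their call in all 8 leave-one-out fits, and Eps8 lost it in 5 of them. After quantile normalization Stat3 and Eps8 were no longer called (limma adjusted p = 0.0555 and 0.0713).

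Of 20 feedback inhibitors of the receptor and of ERK, 2 rose, both of them dual-specificity phosphatase genes that ERK signalling is known to induce. Dusp6 read 10.33, 10.50, 10.05 and 10.25 in KO replicates 1 to 4, against 9.88, 8.91, 9.14 and 9.45 in WT replicates 1 to 4 (log2 difference 0.93, SE 0.20, limma adjusted p = 0.0202). Dusp5 read 9.04, 9.09, 8.54 and 8.37 in KO replicates 1 to 4, against 8.02, 7.44, 7.65 and 8.05 in WT replicates 1 to 4 (log2 difference 0.97, SE 0.21, limma adjusted p = 0.0186). No KO array reached down to the WT range in either gene, and WT replicates 1 and 4 were the highest WT arrays in both. The sprouty and Spred genes, the receptor inhibitor gene Errfi1 and Lrig1 were not in the table.

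Of 26 transcription factor and early response genes that growth factors induce, 7 rose, or 26.9%, against 6.30% of all RefSeq protein-coding genes. The largest rise was that of Fosl1, by 1.81 log2 units (SE 0.44, limma adjusted p = 0.0298), followed by Nr4a1 at 1.38, Ier3 at 1.34 and Junb at 1.32, and by Egr1, Atf3 and Ier2 at 0.83 to 0.93. Ier3 lies on chromosome 17, as Cdsn does, so for it the loss of Cdsn and variants inherited along with the floxed allele cannot be told apart. Against 6.30% of all RefSeq protein-coding genes, 17.4% of 23 genes of keratinocyte wound responses rose, that is 4 genes. They were the chromatin protein gene Hmga2 by 1.24 (SE 0.28), the collagenase gene Mmp1b by 1.21 (SE 0.28), and the integrin genes Itga5 by 0.89 (SE 0.21) and Itga3 by 0.73 (SE 0.18), with limma adjusted p of 0.0231 to 0.0295. Mmp1b was dim, at 2.72 to 4.09 in KO and 2.14 to 2.59 in WT. Its mean lay below the median of all probe set means. Krt6a, Krt6b, Krt16 and Krt17, the stress keratin genes of this list, were not in the table.

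**Figure D4:**
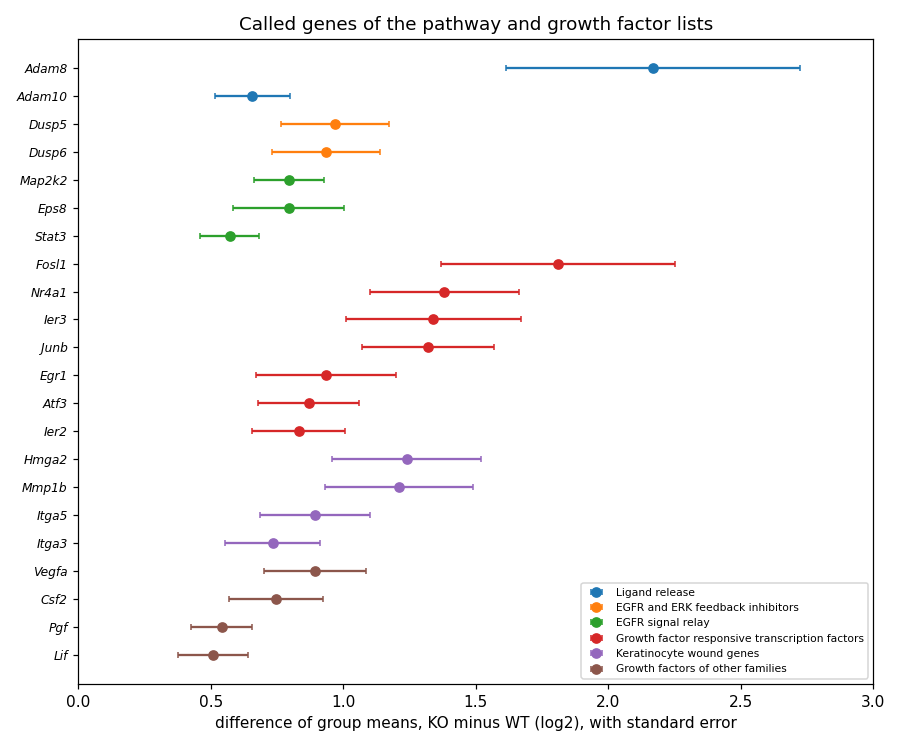
Difference of group means, KO minus WT, in log2 units with its standard error, for the 22 called genes of the pathway lists and of other growth factor families, without the ligands, coloured by list. All lie above 0, from 0.51 for Lif to 2.17 for Adam8.

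Growth factors and cytokines of other families were set beside the ligands. Of 31, 4 were higher and 0 lower, or 12.9% higher against 6.30% of all RefSeq protein-coding genes. Vegfa, the main angiogenic factor, was higher by 0.89 log2 units (SE 0.19) and the myeloid growth factor gene Csf2 by 0.75 (SE 0.18). The placental growth factor gene Pgf, related to Vegfa, was higher by 0.54 (SE 0.12) and Lif by 0.51 (SE 0.13). Limma adjusted p of the 4 was 0.0186 to 0.0371. Vegfa lies on chromosome 17, and for it too the loss of Cdsn and linked variants cannot be told apart. These 4 differences were smaller than those of Epgn, Areg, Hbegf and Ereg. That of Vegfa was above those of the probe set labelled Nrg1 (0.88) and of Tgfa (0.73), and that of Csf2 was above that of Tgfa. Csf2 was dim, at 3.34 to 4.13 in KO and 2.97 to 3.23 in WT. The means of Csf2 and Pgf lay below the median of all probe set means. The ligands were chosen on these values, and the difference between the families was not tested.

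Some markers of other cells moved with the groups as well. Of all RefSeq protein-coding genes, 6.30% were in the table as higher, a set unlike these marker lists. Enrichment of the marker lists was not tested. Of 9 neutrophil markers 5 were higher, with a mean log2 value over these 5 of 7.78 to 9.57 in KO and 4.44 to 7.27 in WT, the top of the WT range being WT replicate 1, the other WT arrays reaching 5.62 at most. The largest differences were those of S100a9 (5.22 log2 units, limma adjusted p = 0.0149) and S100a8 (4.02), against 2.77 for Ly6g, 2.53 for Cxcr2 and 0.85 for Camp. Whether S100a8 and S100a9 RNA came from neutrophils or from other skin cells was not tested. As for Epgn, Areg and Hbegf, WT replicate 1 was the highest WT array for S100a8 (11.57), S100a9 (9.00), Cxcr2 (8.47) and Ly6g (4.12), but for Camp it was the lowest (3.18). The other 4 neutrophil markers were not in the table. Of 11 markers of T and innate lymphoid cells, which can make Areg, 3 were higher (Il1rl1 by 1.67, Icos by 1.43 and Foxp3 by 1.17, limma adjusted p of 0.0162 to 0.0432), with a mean of 6.07 to 7.55 in KO and 5.13 to 5.89 in WT. Of 9 mast cell and basophil markers, Tpsab1 (by 4.30) and Tpsb2 (by 1.52) were higher, with a mean of 8.49 to 10.12 in KO and 6.31 to 6.82 in WT. Both lie on chromosome 17, and for them too the loss of Cdsn and linked variants cannot be told apart. None of the 10 macrophage, 7 dendritic and Langerhans cell, 7 fibroblast or 6 cartilage markers was in the table. Of 11 striated muscle markers 2 were lower, Mylk4 and Tnnc2, with a mean of 7.41 to 8.43 in KO and 8.57 to 9.51 in WT. Single markers of hair follicle (Krt25, 1.0) and endothelium (Cdh5, 0.60) were higher. Of 10 keratinocyte markers, Krt1, Ivl and Dsc1 were in the table, as higher, with a mean of 11.41 to 12.11 in KO and 10.28 to 11.38 in WT, again with WT replicate 1 at the top. A gene could be named only if it differed between KO and WT, so these markers do not check the labelled tissue. After quantile normalization S100a8, Ly6g, Foxp3 and Cdh5 were no longer called (limma adjusted p of 0.0528 to 0.134). With single arrays left out, S100a8 and Cdh5 lost their call in 7 of the 8 fits and Ly6g, Foxp3 and Dsc1 in 6. S100a9, Camp, Icos and Tpsab1 lost it in 0, and the other markers in 2 to 5. KO and WT values overlapped for S100a8, Foxp3 and Tpsb2. Ly6g read 7.91 and 7.93 in KO replicates 1 and 2, but 4.7 and 4.6 in KO replicates 3 and 4. The part of these cells in the ligand values was not tested.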

How the data were processed

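Per the submitters' processing notes, the authors made the deposited log2 values with RMA, which corrects background, normalizes between arrays and summarises probes; its version and options are not given in the sources used here. Per the file headers, the authors' table lists, for 3411 probe sets, group means of log2 intensity, a linear fold ratio, and p-values raw and adjusted by Benjamini-Hochberg. Its p-values differed from those of the fit below by at most 6.69e-08 as a relative difference.

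No further normalization was applied. KO was compared with WT across the whole set of 33793 probe sets by limma (version 3.58.1, R 4.3.3; moderated, two-sided, Benjamini-Hochberg over all of them, called at 0.05), and the procedure was tested on simulated data. Names came from the authors' table, updated through RefSeq; a gene with more than 1 probe set is represented by that of highest mean over the 8 arrays. Named genes are the 6 ligands, Cdsn, up to 4 called genes with the largest difference per pathway list, up to 3 called markers per cell type, and the 2 genes closest in centred profile to each ligand. Egr1, Atf3 and Ier2 were named after their values were seen, to complete their lists. A few listed genes are not reported here and are left out of the counts. The members and lists were chosen with earlier results of these data known. Same-numbered KO and WT arrays had correlations of deviations from the group means of 0.548, -0.0624, 0.276 and 0.304. Arrays with different numbers had -0.486 to 0.302, and for replicates 1, 3 and 4 the same-numbered value was the highest for both arrays. The labels name no pairing, so the main fit did not take the numbers as pairs. Whether they mark a shared batch was not tested, and a fit with the number as a block is given below. Scan dates were not analysed here. The number of arrays limits the precision, and nothing states whether mice shared litters or cages. Summaries and figures used Python 3.11.15, pandas 2.3.3, numpy 2.4.6 and matplotlib 3.10.9.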

Additional observations from a re-analysis of the deposited data

Results flagged for a closer look

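Single arrays stood far from the other 3 of their group in 4 of 58 groups of 4 values examined, where chance flags about 1 in 20. Epgn in WT read 9.25 in replicate 1, against 5.07 to 5.72 in the other WT arrays. Lif in WT read 6.12 in replicate 1, against 5.62 to 5.69 in the others. Itga5 in WT read 8.49 in replicate 4, against 7.92 to 8.02, and Stat3 in WT read 10.64 in replicate 2, against 10.95 to 10.99.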

How the results depend on the processing

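The log2 differences of the 6 ligands kept their sign and moved by less than the spread between replicates under quantile normalization, median centring, the replicate block, group medians in place of means, each array left out and, for Ereg, the mean of its probe sets (1.06). For Epgn the difference of medians was 4.07. The calls at 0.05 were less stable than the sizes for 3 of the 6. Epgn and Tgfa missed that limit with quantile normalization, as given above. They also missed it once arrays were centred on their medians (limma adjusted p = 0.055 for Epgn, 0.0737 for Tgfa). Of the 8 leave-one-out fits, Epgn and Tgfa each lost their call in 6 and Areg in 3. Hbegf, Ereg and the probe set labelled Nrg1 lost it in 0. The count of called genes of the pathway and other growth factor lists was 22 as deposited, 15 after quantile normalization, 18 after median centring, 10 of the 19 still tested with dim probe sets left out, 5 without moderation, and 5 to 20 with single arrays left out. Over all probe sets the count was 4428 as deposited, 718 with dim probe sets left out, and 2161 to 3504 with single arrays left out. Leaving out a dim probe set or an array tests fewer probe sets or mice; the cause was not tested further. Calls were 3350 higher and 1078 lower as deposited, 1689 and 1751 after quantile normalization, and 1819 and 1598 after median centring. With the replicate block the counts were 22 of these genes and 5150 probe sets, so no call among these genes changed. The ligand differences were as before (3.11 for Epgn). That is fixed by the design, since both groups hold the same replicate numbers, and nothing is read from it. Only 4 of the 22, Map2k2, Stat3, Junb and Nr4a1, were called with each array left out.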
